A study of Mus musculus with 6 samples.

Results

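The data compare the RNA of Setd2 knockout and wild-type stem and progenitor cells of the mouse, taken shortly after the gene was deleted. Total RNA was sequenced from sorted bone marrow LSK cells, the lineage-negative, Sca-1-positive, c-Kit-positive fraction that holds hematopoietic stem cells and multipotent progenitors. The comparison rests on 2 of the 6 samples of the series, 1 library of wild-type cells (young WT) and 1 library of Setd2 KO cells (young KO). Of 14455 genes listed in any of the RNA libraries, 13745 were listed in at least 1 young library, and 12409 were measured, meaning that they were listed with a scaled FPKM of 1 or more in at least 1 of the young libraries. FPKM is fragments per kilobase of transcript, relative to the library total, so levels are per length. A gene that a file did not list is called not listed here and was given the lowest listed level, 0.5.

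Both young groups were C57BL/6 mice, and the labels date both to 4 weeks after induction with pI-pC, a double-stranded RNA that raises interferon and is commonly used to switch on an interferon-driven Cre. The KO is described as a conditional knockout of Setd2. The Cre line, the exons that it removes, the number of mice behind a library and any sequencing batch are not given in the sources used here. The 2 old RNA libraries, WT and Setd2 KO at 8 months after induction in the same strain, are given beside the young values. The old libraries differ from the young ones in more than age: Xist was at 291 and 279 in the old WT and KO libraries and not listed in the young ones, 7 Y-linked genes were listed in both young libraries and 1 of them, a predicted gene, in the old ones. The step between low values (FPKM multiplied by locus length in kb) was 0.104 for young WT and 0.111 for young KO, against 0.056 and 0.055 for the old pair. Age, sex and depth therefore cannot be told apart in any contrast of young with old. The 2 bisulfite samples of young cells were not analysed here. With 1 library per group no spread between mice can be measured. No p-value or SD is therefore given, and every statement describes these libraries alone.

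Setd2 is the enzyme that adds the third methyl group to lysine 36 of histone H3. It travels with elongating RNA polymerase II, so the mark lies over the bodies of transcribed genes, where it is read by DNA methyltransferases, splicing regulators and repair factors. LSK cells normally hold low levels of genes of several blood lineages, among them red cell genes under the transcription factors Gata1 and Klf1, granule genes of the myeloid lineage and antigen presentation genes. Setd2 (ENSMUSG00000044791, chromosome 9, 110532597 to 110618633, build mm10) stood at a scaled 14.1 FPKM in the WT and 12.4 in the KO library. A conditional allele can leave RNA of the undeleted exons, so this gene-level value does not check the labels.

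Of the genes that define the sort, Kit was at 61.0 in the WT and 52.9 in the KO library, and Ly6a, the gene of Sca-1, was low in both, at 4.86 and 3.17. Outside the gate, the progenitor antigen Cd34 was at 60.4 and 53.2 and Ptprc, the pan-leukocyte antigen, at 16.7 and 13.5. The lineage genes Cd3e, Cd4, Cd8a and Ly6g were not listed in either young library, whereas Itgam was listed at 4.89 and 3.38. By the spacing of low values, 5 FPKM on a 2 kb transcript amounted to 95.7 counted units in the WT and 90.4 in the KO library, a counting error of 10.2% and 10.5%. At an FPKM of 20 the error was 5.11% and 5.26%. The predicted genes Gm26917 and Gm42418 together held 18.3% of the summed FPKM of young WT and 25.5% of young KO, and their part in the differences below was not tested.

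Most genes differed little. Differences are KO minus WT on the log2(scaled FPKM + 1) scale, where 1.5-fold is 0.58. The median over all measured genes was 0.00, with 50.5% of genes above 0 and 49.5% below. At least 1.5-fold higher in young KO were 506 genes, 4.08% of those measured, and at least 1.5-fold lower were 454, or 3.66%. Higher genes thus made up 52.7% of those past 1.5-fold. Without scaling the counts were 373 and 694, 35.0% of them higher, and the median of all genes was -0.10. The scatter widened at low levels: the middle 95% of genes with a mean level of 5 to 10 lay between -0.60 and 0.65, and of those at 20 to 50 between -0.40 and 0.49. For comparison, old and young WT differed by 1.5-fold or more either way at 15.8% of genes, against 7.74% for the young genotypes. The 20 chromosomes had medians between -0.02 and 0.02.

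**Figure D1:**
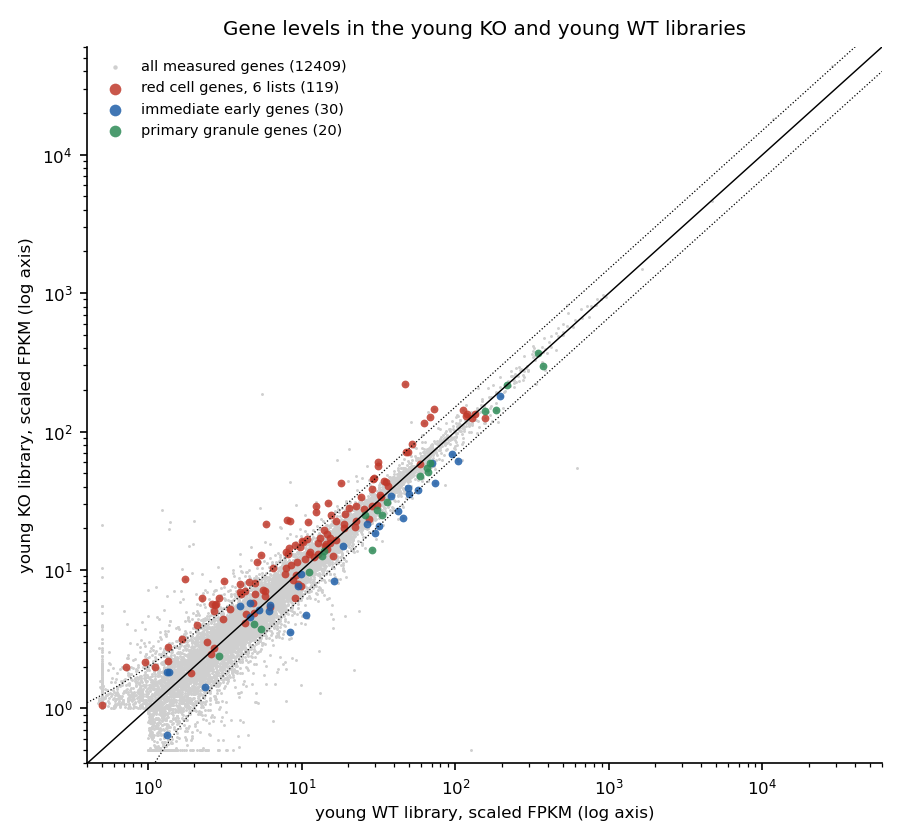
Scaled FPKM of 12409 measured genes in the young WT library (horizontal, log axis) and the young KO library (vertical, log axis); grey points are all genes, coloured points the members of 3 sets, the solid line marks equal levels and the dotted lines a 1.5-fold difference on the log2(scaled FPKM + 1) scale. Red cell genes lie mostly above the solid line, 46 of 119 past the upper dotted line, and immediate early genes mostly below it, 9 of 30 past the lower one.

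Of 88 gene lists, 24 had at least 8 measured members and either a median of at least 0.15 in size or at least 75% of members on one side of 0, and these are described below. In the other 64 lists the medians ran from -0.13 to 0.64, the highest being that of the globins and late red cell genes, with 7 measured members. Every count of members past 1.5-fold is to be read beside the share of all measured genes, 4.08% higher and 3.66% lower.

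**Figure D2:**
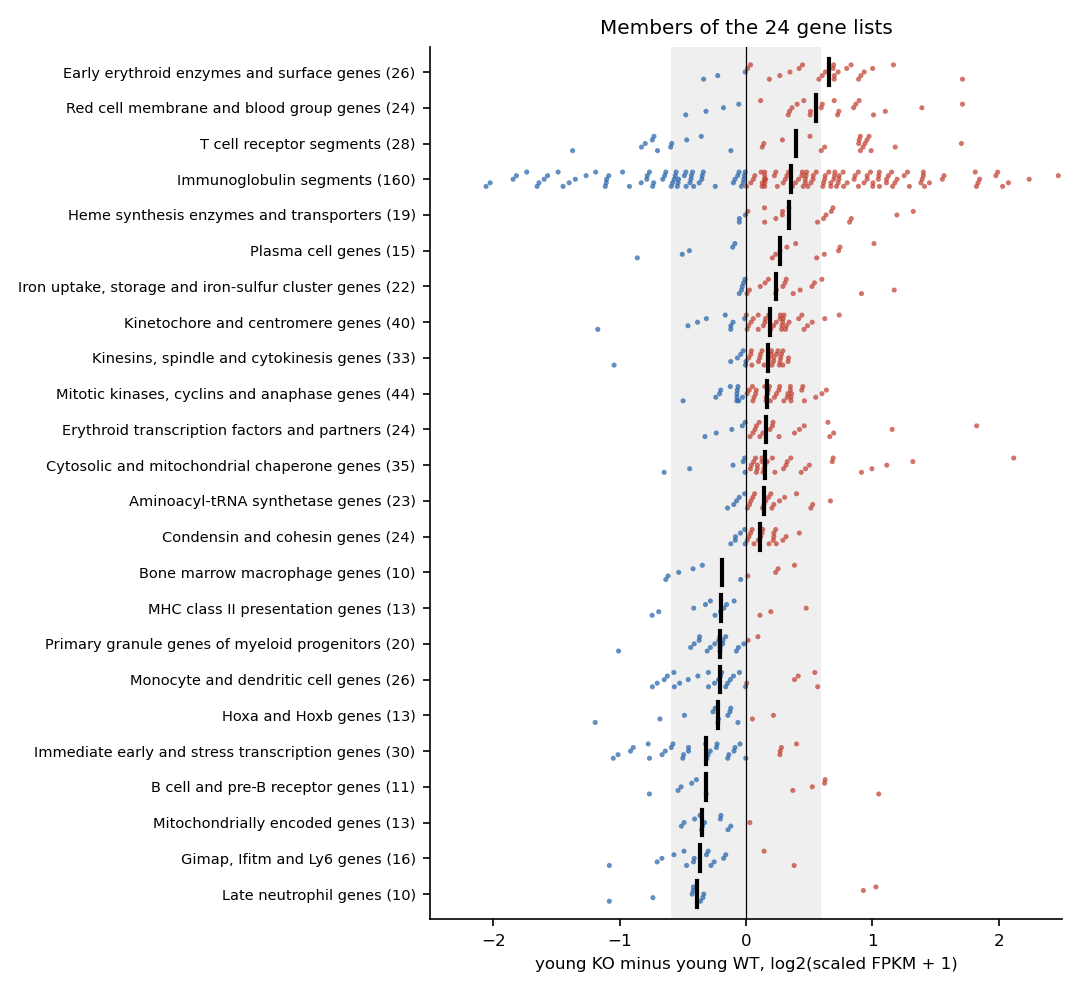
Difference between young KO and young WT, log2(scaled FPKM + 1), for each measured member of the 24 lists (points, red above 0 and blue below), with the list median as a black bar, the number of measured members in brackets, and the range under 1.5-fold in grey. The early erythroid and red cell membrane lists have the highest medians, 0.66 and 0.55, and the late neutrophil list the lowest, -0.39; 7 members lie beyond the axis and are not drawn.

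Red cell genes were higher in young KO at every step for which a list was made. Over 6 lists of erythroid genes, 99 of 119 measured members lay above 0 and 46 were at least 1.5-fold higher, against the 50.5% and 4.08% of all genes. None was 1.5-fold lower, and the median was 0.40. In bulk RNA a larger share of red cell precursors and more of these transcripts per cell cannot be told apart. Of the 46 higher members, 43 had their highest level of all 4 RNA libraries in young KO, 12 had their lowest in young WT and 26 had it in old KO. The 46 were picked for being higher in young KO than in young WT, so these counts are partly set by that choice. The median of the 119 genes was 0.10 for old WT minus young WT and -0.16 for old KO minus old WT.

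Some of these genes carry, just before their start, the letters that GATA factors bind. The 120 bases before the first listed transcription start (RefSeq, GRCm38.p6, 5′ to 3′ on the gene's strand) are shown for 8 of the higher genes that span the roles below. The 8 were chosen because a Gata-type match lies in this stretch, whether or not a CACCC-type match does. Capitals mark AGATAA, in which the first letter may also be T and the last may also be G, and for the CACCC-type CCNCNCCC, on either strand; overlapping matches run together.
Rhd: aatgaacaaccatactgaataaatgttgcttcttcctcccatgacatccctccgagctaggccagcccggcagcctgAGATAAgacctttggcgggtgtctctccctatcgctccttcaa
Rhag: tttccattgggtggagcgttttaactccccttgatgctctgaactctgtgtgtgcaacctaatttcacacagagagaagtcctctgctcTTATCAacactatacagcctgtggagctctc
Cpox: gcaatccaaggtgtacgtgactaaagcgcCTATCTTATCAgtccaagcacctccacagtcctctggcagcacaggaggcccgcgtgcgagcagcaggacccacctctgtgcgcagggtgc
Klf1: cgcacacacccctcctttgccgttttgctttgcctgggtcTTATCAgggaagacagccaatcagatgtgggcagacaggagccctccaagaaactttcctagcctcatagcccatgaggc
Ermap: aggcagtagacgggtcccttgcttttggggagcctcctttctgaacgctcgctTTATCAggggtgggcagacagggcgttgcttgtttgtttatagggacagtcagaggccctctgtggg
Kel: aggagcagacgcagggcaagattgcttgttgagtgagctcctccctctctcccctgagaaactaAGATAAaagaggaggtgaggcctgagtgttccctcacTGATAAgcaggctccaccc
Epor: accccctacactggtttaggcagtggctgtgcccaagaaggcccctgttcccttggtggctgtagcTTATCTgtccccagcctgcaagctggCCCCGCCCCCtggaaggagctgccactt
Alas2: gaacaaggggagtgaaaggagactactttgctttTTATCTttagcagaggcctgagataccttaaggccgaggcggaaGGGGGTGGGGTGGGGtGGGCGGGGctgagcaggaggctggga
The stretches are chr4:134864416-134864535 (plus strand) for Rhd, chr17:40811029-40811148 (plus) for Rhag, chr16:58670088-58670207 (plus) for Cpox and chr8:84901862-84901981 (plus) for Klf1. They are chr4:119189996-119190115 (minus) for Ermap, chr6:41704326-41704445 (minus) for Kel, chr9:21963577-21963696 (minus) for Epor and chrX:150547297-150547416 (plus) for Alas2.

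Over the 250 bases before the start, a Gata-type match was found in 16.6% of the 8404 measured genes with a promoter entry and in 27.1% of all 27025 genes of the promoter table. It was found in 30 of 91 erythroid members with an entry, or 33.0%, and by list in 9 of 18 membrane, 8 of 18 early erythroid, 4 of 5 globin and late, 4 of 16 iron, 5 of 22 factor and 3 of 15 heme genes. The last 3 shares, 25%, 22.7% and 20%, lie between those of measured genes and of the whole table. Among the erythroid members it was found in 17 of 34 that were 1.5-fold higher and in 13 of the 57 others, 50% and 22.8%. The CACCC-type match was common everywhere, in 64.0% of measured genes and 63.7% of erythroid members. The 4.08% of all 12409 measured genes is not the share for the 8404 with a promoter entry. Among these 8404, 4.23% of genes with a Gata-type match were 1.5-fold higher, against 2.64% of those without. This is not a separate observation, since the 59 higher genes with a match include the 17 erythroid members counted above. A match describes letters in the window and not binding.

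The transcription factors of the lineage ranged from higher to level or slightly lower. Of 24 measured factors and partners 19 lay above 0, 5 by 1.5-fold or more, and the median was 0.16. Cited4, a co-activator adaptor, read 1.73 in the WT and 8.67 in the KO library. Klf1, which activates globin and membrane genes, read 12.3 and 28.7, and Gata1, the lineage's main activator, 15.4 and 25. Gfi1b, a repressor needed for red cells and platelets, read 7.95 and 13.5. For all 4 the old WT level lay between those of young WT and young KO, at 5.98, 20.6, 17.3 and 11.9, and the old KO level below old WT, at 3.30, 12.4, 8.50 and 6.66. Tal1, a helix-loop-helix factor of stem and erythroid cells, differed less (16.7 and 22.7), as did Cited2 (24.3 and 33.9). Some factors shared with stem and myeloid progenitors hardly differed, with Gata2 at 14.4 and 15.3, Myb at 118 and 129 and Lyl1 at 58.6 and 58.3. Nfe2 (12.8 and 13.1) and Zbtb7a (16.7 and 16.3) were level too. Lmo2, which bridges Tal1 and Gata1, was at 27.5 and 23.2, and Ikzf1, a lymphoid factor, at 15.95 and 12.5.

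Heme synthesis genes were higher along nearly the whole pathway. Of 19 measured members 16 lay above 0, 8 by 1.5-fold or more, with a median of 0.34. The first erythroid step, Alas2, read 3.99 in the WT and 6.74 in the KO library, whereas the ubiquitous form Alas1 read 11.3 and 13.5. Of the next enzymes, Alad was at 15.3 and 17, Uros at 2.71 and 5.55, and Urod at 8.17 and 13. Cpox, which acts in the space between the mitochondrial membranes, was at 18.1 and 42.7, and the last enzyme, Fech, which inserts the iron, at 22.5 and 28.7. The differences were thus largest in the middle of the pathway. The transporters followed, with Slc25a38, which brings glycine into the mitochondrion, at 3.98 and 6.94 and Tmem14c, needed for porphyrin import, at 47.6 and 70.9. Blvrb, a reductase of heme breakdown, read 8.40 and 22.5, but the heme oxygenases did not follow, with Hmox1 at 2.69 and 2.73 and Hmox2 at 14.6 and 14.1.

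Iron genes showed the same direction at a smaller size: 17 of 22 above 0, 3 past 1.5-fold, median 0.24. The list as written also holds Fam132a, a secreted protein gene that is not an iron gene, at 31.4 and 60.0. Without it, an alternative chosen after seeing the data, 16 of 21 lay above 0, 2 past 1.5-fold, with a median of 0.23, and over all erythroid lists 98 of 118 lay above 0 and 45 past 1.5-fold. Ncoa4, the receptor that brings ferritin to the lysosome, was at 2.24 in the WT and 6.29 in the KO library, and Slc11a2, the iron exporter of the endosome, at 6.46 and 10.3. The transferrin receptor Tfrc was at 20.4 and 27.8. Iron-sulfur cluster genes divided, with Isca1 at 9.74 and 14.6 and Glrx5 at 48.9 and 70.6, but Nfs1, the sulfur donor enzyme, at 8.71 and 8.47. The abundant iron chaperones Pcbp1 (135 and 134) and Pcbp2 (128 and 126) were level.

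The membrane and blood group genes were among the most uniformly higher. Of 24 measured 20 lay above 0 and 12 past 1.5-fold, and the median was 0.55. The Rh complex led, with Rhd at 5.83 in the WT and 21.4 in the KO library and its partner Rhag at 8.06 and 22.8. Kel, the Kell antigen, was at 5.14 and 11.4, Ermap, the Scianna antigen, at 5.45 and 12.9, and the water channel Aqp1, the Colton antigen, at 62.7 and 115. The skeleton under the membrane differed in the same direction: Ank1, the ankyrin of red cells, was at 2.61 and 5.70, and the spectrin gene Sptb at 4.56 and 8.24. The members that were lower are not confined to red cells. Cd47, the signal against phagocytosis on all blood cells, was at 155 and 124, and Add1, the general adducin, at 9.08 and 6.24, while the red cell adducin Add2 was at 2.07 and 3.97.

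Early erythroid enzymes and surface genes had the highest median of the 24 lists, 0.66, with 23 of 26 above 0 and 15 past 1.5-fold. The carbonic anhydrases Car1 and Car2 were at 72.4 and 68.2 in young WT and 146 and 127 in young KO. In the old libraries Car1 was at 123 in WT and 52.6 in KO, so its young WT and old KO levels were the low ones. Epor, the erythropoietin receptor, was at 9.07 and 15.2, Aldh1a1, a retinaldehyde dehydrogenase, at 11 and 22 and Minpp1, an inositol phosphate phosphatase, at 29.5 and 46.2. Paqr9 was at 3.12 and 8.25 and Atp1b2, a sodium pump subunit, at 2.89 and 6.30. The antioxidant enzymes of red cells differed from each other, with Prdx2 at 28.6 and 38.5 and Cat at 28.7 and 28.9. Trim58, a ubiquitin ligase of late red cell precursors, was at 9.94 and 7.66.

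All 7 measured globin and late red cell genes lay above 0, 6 of them past 1.5-fold. The beta globin Hbb-bs was at 46.8 in the WT and 220 in the KO library and Hbb-bt at 52.2 and 80.7. The alpha globins were at 29.3 and 45.6 for Hba-a1 and 10.02 and 16.1 for Hba-a2, near-identical copies between which reads may be split. Slc4a1, the anion exchanger band 3, was at 14.8 and 30.4. The summed level of this list was 167 and 421 in the young WT and KO libraries and 34.8 and 64.4 in the old ones. Both young libraries thus held more of it than both old ones.

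**Figure D3:**
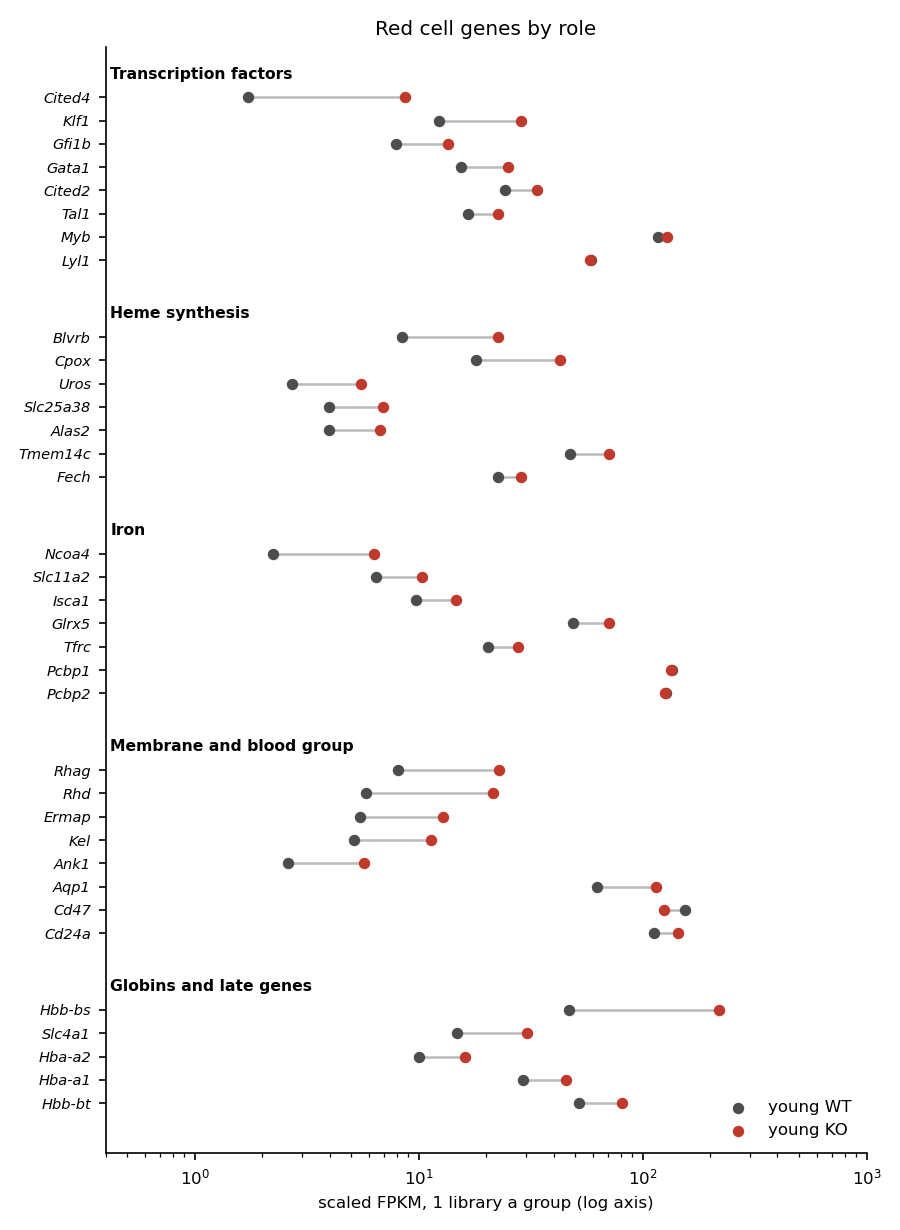
Scaled FPKM (log axis) of named red cell genes in young WT (dark) and young KO (red), 1 library each, grouped by role, with a line joining the values of a gene. Nearly all pairs have the red point to the right, while Lyl1, Pcbp1, Pcbp2 and Myb nearly coincide and Cd47 is reversed.

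Genes of mitosis were slightly higher in young KO, many by a small amount. In 4 lists together 107 of 141 measured genes lay above 0, with a median of 0.16, and 4 were at least 1.5-fold higher and 2 lower. Without scaling, where the median of all genes was -0.10, the medians were 0.08 for kinetochore, 0.06 for mitotic kinase, 0.06 for kinesin and 0.00 for condensin and cohesin genes. A known cell cycle element, the CHR, to which the DREAM and MuvB complexes bind, lies before some genes of this kind, often near CCAAT boxes. The 120 bases before the first listed start are shown for 4 genes in which both elements lie in this stretch. They were picked from mitosis genes that were higher in young KO and at a level of 5 or more, taking the largest differences first. The direction and size of their differences are thus set by that choice. Capitals mark the CHR, TTTGAA, in which the third letter may also be C, and the CCAAT box, on either strand.
Ube2c: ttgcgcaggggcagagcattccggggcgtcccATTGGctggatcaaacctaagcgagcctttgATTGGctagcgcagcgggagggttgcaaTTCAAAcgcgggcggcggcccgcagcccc
Espl1: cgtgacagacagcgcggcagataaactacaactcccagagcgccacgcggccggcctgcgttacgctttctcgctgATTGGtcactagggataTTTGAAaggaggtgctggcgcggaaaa
Ccnf: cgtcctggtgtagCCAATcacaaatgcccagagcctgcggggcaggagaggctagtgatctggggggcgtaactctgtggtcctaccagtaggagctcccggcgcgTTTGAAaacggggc
Kif11: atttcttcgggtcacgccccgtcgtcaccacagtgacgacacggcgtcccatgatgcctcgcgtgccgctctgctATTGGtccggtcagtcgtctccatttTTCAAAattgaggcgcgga
They lie at chr2:164769809-164769928 (plus strand) for Ube2c, chr15:102296173-102296292 (plus) for Espl1, chr17:24251410-24251529 (minus) for Ccnf and chr19:37376262-37376381 (plus) for Kif11. A CHR match in the 250 bases before the start was found in 38 of 114 mitosis genes with an entry, or 33.3%, against 12.04% of measured genes and 6 of 44 DNA replication genes. It was found in 17.4% of all genes of the promoter table. A CCAAT box was found in 67 of the 114, or 58.8%, against 37.2% of measured genes and 25 of 44 replication genes. Among the 8404 measured genes with a promoter entry, 1.98% of those with a CHR match were 1.5-fold higher, against 3.03% of those without.

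Within mitosis, 31 of 40 kinetochore and centromere genes lay above 0, with a median of 0.19. Hjurp, the loader of centromeric histone, was at 30.2 in the WT and 43.8 in the KO library, and Cenpa, that histone, at 11.2 and 15.8. Spc25, of the complex that grips microtubules, was at 3.57 and 6.03, and Casc5, its scaffold, at 9.26 and 13.4. Against the list stood Ska2, which holds kinetochores on microtubules, at 5.84 and 2.03, and Cenpt at 13.7 and 9.70, whereas Ska1 was at 4.54 and 5.69.

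Of 44 mitotic kinases, cyclins and anaphase genes 32 lay above 0, with a median of 0.16. Cdc25b, the phosphatase that starts mitosis, was at 5.16 in the WT and 8.57 in the KO library, Birc5, the survivin subunit of the chromosomal passenger complex, at 9.46 and 13.3, and Cks2, a subunit of cyclin-dependent kinases, at 19.4 and 30.0. Fzr1, an activator of the anaphase-promoting complex, was at 11.5 and 16.2, and Ube2c, its ubiquitin-conjugating enzyme, at 3.75 and 5.44. Of 33 kinesin, spindle and cytokinesis genes 26 lay above 0 and none reached 1.5-fold higher. The motors Kif11 and Kif23 were at 44.2 and 54.3 and at 16.9 and 20.6. The exception was Stmn1, which frees tubulin from microtubules, at 85.9 and 41.1. The tubulins Tubb5 (372 and 377) and Tuba1b (290 and 289) were level.

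Condensin and cohesin genes were above 0 for 18 of 24, none past 1.5-fold, with Smc2 at 26.6 and 31.5 and Smc4 at 15.4 and 19. Their median was 0.11. DNA replication genes did not show the pattern, with 29 of 54 above 0, none past 1.5-fold either way and a median of 0.02. Among the G1 genes 18 of 27 lay above 0, with a median of 0.09. Chosen from them after their values were seen, the cyclins Ccnd3 (2.97 and 7.39) and Ccne1 (3.11 and 6.69) were higher in young KO, and Cdkn2c, a kinase inhibitor, was lower, at 7.09 and 4.19.

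Chaperones and aminoacyl-tRNA synthetases also had over 75% of their members above 0. Of 35 measured chaperone genes 29 lay above 0, 7 by 1.5-fold or more, and the median was 0.15. The heat-inducible Hspa1b was not listed in young WT and was at 5.51 in young KO. Hsph1 and Bag3, which exchange the nucleotide of Hsp70, were at 5.74 and 15.8 and at 2.76 and 7.13, and Dnaja1, a co-chaperone, at 4.33 and 9.63. Chordc1, a partner of Hsp90, was at 29.4 and 47.8. Other Hsp90 genes went the other way or stayed level, with Hsp90aa1 at 111 and 81.3, Fkbp4 at 52.0 and 32.8 and Hsp90ab1 at 183 and 193. The cytosolic folding ring was level too, with Cct2 at 120 and 119.

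Of the 23 aminoacyl-tRNA synthetase genes, which charge transfer RNA with amino acids, 18 lay above 0 and 1 was past 1.5-fold, with a median of 0.14. That 1 was Eef1e1, a scaffold protein of the synthetase complex, at 19.3 in the WT and 31.2 in the KO library. Hars, for histidine, was at 14.4 and 21.2, Cars, for cysteine, at 5.93 and 8.88, and Iars, for isoleucine, at 24.4 and 32.5. Kars, for lysine, was at 56.8 and 51.2. Cytoplasmic ribosomal proteins, with a median of 0.06 over 82 genes, and translation factors, with 0.01 over 65, did not meet the criterion.

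Immediate early genes, which respond within minutes to growth factors, stress and cell handling, were lower in young KO. Of 30 measured members 26 lay below 0 and 9 were at least 1.5-fold lower, against 49.5% and 3.66% of all genes, and none was 1.5-fold higher. The median was -0.32. The AP-1 subunits Fos, Fosb, Junb and Jun were at 73.5, 45.7, 30.0 and 94.9 in young WT and at 42.5, 23.7, 18.6 and 68.9 in young KO. Egr1, a zinc finger factor, was at 10.6 and 4.74, and Cebpd, a C/EBP factor, at 8.40 and 3.54. Ier2 and Ier3 were at 105 and 61.3 and at 16.2 and 8.27, and the phosphatase Dusp1, which switches off MAP kinases, at 42.1 and 26.6. Nr4a1 and Zfp36l1 stood on the other side, at 4.60 and 5.74 and at 3.93 and 5.50. For 29 of the 30 genes, all but Cebpd, old and young WT differed by more than the young genotypes did: Fos was at 259 in the old WT and 350 in the old KO library, and Fosb at 204 and 262. The list's median for old WT minus young WT was 1.22. In the 250 bases before the start, the AP-1 letters TGANTCA were found in 1 and the CRE letters TGACGTCA in 3 of 25 members with an entry, against 336 and 241 of the 8404 measured genes, both strands searched. The time from killing to lysis is unknown here, and its part was not tested.

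Myeloid genes were lower by small amounts in young KO. Of 20 measured primary granule genes, which mark granulocyte and monocyte progenitors, 18 lay below 0, with a median of -0.21, and 1 was past 1.5-fold. That gene was Cst7, a protease inhibitor, at 28.9 in the WT and 13.8 in the KO library. The granule proteases Elane and Ctsg were at 371 and 300 and at 185 and 143, and Ms4a3, a membrane protein of these progenitors, at 33.4 and 24.8. Mpo, myeloperoxidase, did not follow, at 345 and 368.

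Monocyte and dendritic cell genes lay below 0 for 21 of 26, with 4 past 1.5-fold and a median of -0.21. Csf1r, the receptor for macrophage colony-stimulating factor, was at 8.91 in the WT and 4.92 in the KO library, the chemokine Ccl9 at 33.7 and 21.1 and the chemokine receptor Ccr2 at 9.88 and 6.92. Flt3, the receptor that marks multipotent progenitors on the lymphoid and dendritic path, was at 47.7 and 38.6. F13a1 and Cd68 were on the other side, at 15.7 and 21.2 and at 4.37 and 6.00. Late neutrophil genes were mostly not listed. Of 24 entries 10 were measured and 8 lay below 0, with Padi4, which citrullinates histones, at 8.92 and 6.86 and Lyz2 at 113 and 84.1, while Camp, Ltf and Ngp were not listed in either young library. Past 1.5-fold were 2 on each side: Ltb4r1 at 7.82 and 4.29 and Ifitm6 at 2.18 and not listed, against Chil3 at 1.28 and 3.64 and Retnlg, not listed and at 1.85. Bone marrow macrophage genes were near the listing limit, with 10 measured, 6 of them below 0, and Apoe at 5.16 and 2.96.

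Antigen presentation and the clustered immune families went the same way. Of 13 MHC class II genes 10 lay below 0, 2 past 1.5-fold, with a median of -0.20. The class II chain H2-Ab1 was at 18.6 in the WT and 11.2 in the KO library, the peptide-loading modulator H2-Ob at 6.32 and 3.37 and the invariant chain Cd74 at 20.1 and 15.9. H2-Aa, the partner chain of H2-Ab1, was at 7.16 and 6.65, and H2-Eb1, a chain of the other class II molecule, at 13.6 and 15.7. Class I presentation genes had 18 of 25 below 0 and a median of -0.11, with none past 1.5-fold. Of 16 Gimap, Ifitm and Ly6 genes 14 lay below 0 and 3 past 1.5-fold, with a median of -0.36. The abundant Ifitm genes, which restrict virus entry, were at 205 and 147 for Ifitm1, 122 and 98.7 for Ifitm2 and 99.2 and 74.3 for Ifitm3. Ly6e, another antiviral surface protein, was higher, at 15.3 and 20.3. Interferon-stimulated genes as a list had 28 of 48 below 0 and a median of -0.06.

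**Figure D4:**
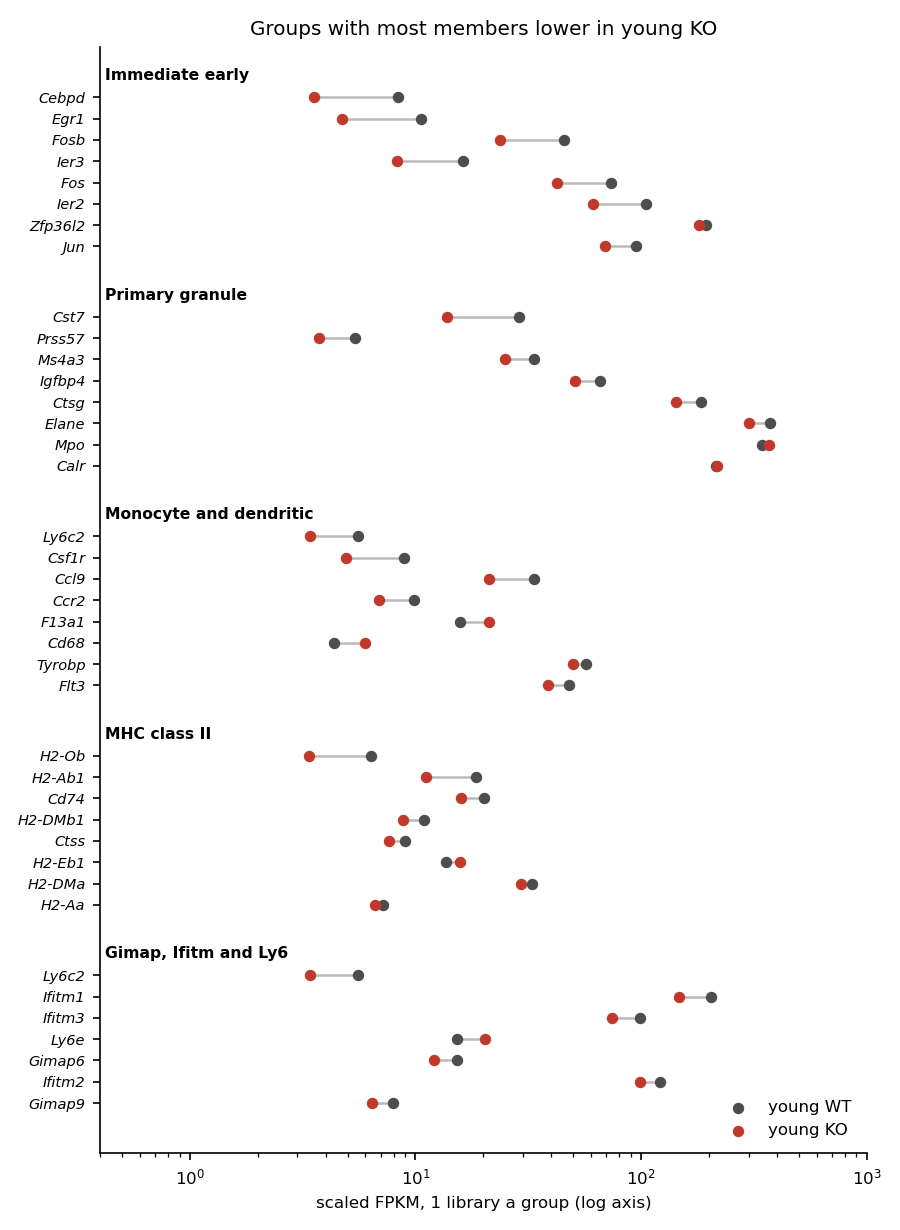
Scaled FPKM (log axis) of named members of 5 groups with most members lower in young KO (red) than in young WT (dark), 1 library each, with a line joining the values of a gene. Red points lie to the left for most genes; Mpo, F13a1, Cd68, H2-Eb1 and Ly6e have the red point to the right.

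Hoxa and Hoxb genes and their cofactors, which act in stem cell self-renewal, were below 0 for 11 of 13 measured, with 2 past 1.5-fold and a median of -0.22. Hoxa5 was at 7.74 and 4.45 in the young WT and KO libraries and at 6.13 and 3.46 in the old ones, so both KO libraries lay below both WT libraries. Hoxa9 was at 6.22 and 5.64 in the young pair, Hoxb4 at 5.13 and 4.26 and the cofactor Meis1 at 12.3 and 11.2. Of these, Hoxa5, with a difference of -0.68, lay outside the middle 95% of genes of its level, and the others lay inside it.

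Mitochondrially encoded genes lay below 0 for 12 of 13, with a median of -0.35, whereas nuclear genes of oxidative phosphorylation had a median of 0.10 over 77 genes. mt-Nd1, of complex I, was at 139 in the WT and 97.2 in the KO library, mt-Cytb, of complex III, at 154 and 116, and mt-Atp6, of the ATP synthase, at 39.5 and 27.8. The most abundant, mt-Co1 of complex IV, was at 1649 and 1493. mt-Nd4l was at 126 in young WT and not listed in young KO, and it was at 62.2 in old WT and not listed in old KO. It overlaps mt-Nd4, at 99.1 and 78.7 in the young pair, and how reads of the overlap were assigned is not stated.

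Lymphoid and antigen receptor genes varied in both directions. Of 160 measured immunoglobulin segments 65 were at least 1.5-fold higher and 31 lower, or 40.6% and 19.4%, against 4.08% and 3.66% of all genes. Among all genes with loci under 2 kb, which include short segments, 13.4% were higher and 9.40% lower. The median of the segments was 0.35, and 27 were listed in young KO alone and 17 in young WT alone. Igkc, the constant region of the kappa light chain, was at 533 in the WT and 820 in the KO library, and at 39779 in the old WT and 5284 in the old KO library. Ighm, the constant region of IgM, was at 66.3 and 138 in the young pair. Single variable segments differed most, with Igkv12-44 at 1.22 and 27.3 and Ighv12-3 at 1.39 and 22.4. Variable segments are near-identical copies between which reads may be split, so single values are uncertain. Of 28 T cell receptor segments 13 were 1.5-fold higher and 8 lower. They were low, summing to 41.3 in young WT with 22 listed and to 58.2 in young KO with 28 listed. Among all genes with a mean level under 2, 14.9% were past 1.5-fold either way.

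B cell genes were mostly unlisted: 11 of 30 entries were measured, 5 above 0 and 6 below, and Cd79a and Vpreb1 were not listed in either young library. Cd79b was at 9.79 and 6.43 and Cd37 at 13.7 and 9.28. Of 15 plasma cell genes 10 lay above 0, with a median of 0.27. Jchain was at 13 in the WT and 19.7 in the KO library, against 1891 and 141 in the old pair. Ell2, an elongation factor that plasma cells use to switch immunoglobulin messages, was at 6.43 and 11.4, and Fkbp11 at 6.98 and 3.39. Tnfrsf17 and Prdm1, which define plasma cells, were not listed in either young library.

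Marker lists of other cell types that the sort could hold moved with some of these groups. Myeloid sums were lower in young KO: late neutrophil markers summed to 169 in the WT and 128 in the KO library, with 10 of 24 listed in each, and monocyte and dendritic cell markers to 296 and 249, with 27 and 26 of 31 listed. Lyz2 alone made up 113 and 84.1 of the late neutrophil sums. Macrophage markers summed to 25.2 and 21.8, with 12 and 11 of 20 listed. Mast cell, basophil and eosinophil markers summed to 693 and 629, with 19 and 22 of 27 listed. The members of that list did not follow its sum, with 12 of 22 measured above 0 and a median of 0.13. T and NK cell markers summed to 90.4 and 76.9, with 17 and 14 of 35 listed. B cell markers summed to 103 and 168, with 13 and 14 of 30 listed, but without Ighm to 36.5 and 29.7. Plasma cell markers summed to 107 and 131, with 14 and 15 of 20 listed. Megakaryocyte and platelet markers, at 310 and 304 with 24 of 28 listed in each, and stromal and endothelial markers, at 56.7 and 56.3 with 13 and 17 of 31 listed, were nearly equal in sum. The part of such cells in the differences above was not tested.

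Chromatin, transcription and repair genes, which work with the mark that Setd2 places, were level. The 30 writers, erasers and readers of H3 lysine 36 methylation, Setd2 among them, had 16 members above 0, a median of 0.01 and none past 1.5-fold. DNA methylation enzymes had a median of 0.06 over 15 genes, RNA polymerase II and elongation genes 0.01 over 45 and double-strand break repair genes 0.00 over 49, with 0, 1 and 0 members past 1.5-fold. The 74 spliceosome and hnRNP genes had a median of 0.05, and 3 were past 1.5-fold. By locus length, the median was 0.01 for 3086 genes of 20 to 50 kb, -0.03 for 847 of 100 to 200 kb and -0.06 for 369 genes over 200 kb, of which 36.04% lay above 0. The same bins had medians of 0.00, -0.04 and -0.06 in old KO minus old WT, and the longest bin had -0.07 in old WT minus young WT. The long genes thus differed by as much between the WT libraries of different age.

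Signalling and metabolic lists stayed near 0 in the median while single members differed. The members named next were chosen after their values were seen. In the Ras and MAP kinase list, with a median of 0.01 over 40 genes, Mapk14, the p38 kinase, was at 26.5 in the WT and 56.6 in the KO library, and the adaptor Grb2 at 33.3 and 16.2. Among 51 actin cytoskeleton genes 37 lay below 0, with a median of -0.08, but the Arp2/3 subunits Arpc4 and Arpc5, which branch actin filaments, were at 22.5 and 47.4 and at 24.5 and 46.1. Of 184 solute carriers 5.98% were 1.5-fold higher and 1.63% lower, against 4.08% and 3.66% of all genes, with the glutamine transporter Slc38a5 at 5.17 and 11.6. Asns, asparagine synthetase, was at 8.40 and 18.1. Of 27 cholesterol genes 18 lay below 0, with a median of -0.12. Of 37 adhesion genes 27 lay below 0, with the integrin Itgal at 14.1 and 10.7.

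The single genes next in size after the 10 largest, at ranks 11 to 25 in each direction and at a level of 5 or more, mix lineage genes with genes of other roles. On the higher side, with differences of 1.17 to 1.504, were the red cell genes Rhag, Blvrb and Cpox given above, and Pklr, the pyruvate kinase of liver and red cells, at 6.18 in the WT and 15.4 in the KO library. Epdr1, an ependymin-like protein, was at 4.65 and 11.8, and Tmem56 at 1.68 and 6.20. For these last 3 old KO lay below old WT, at 14.9 and 5.71 for Pklr (WT first), 9.75 and 5.12 for Epdr1 and 3.16 and 1.72 for Tmem56. Kpna1, an importin, was at 3.56 and 9.91, and also reversed in the old pair, at 9.43 and 3.88. Lrrc47 was at 3.96 and 13.1, Tug1, a long non-coding RNA, at 7.27 and 20.1, Txnl4a, a spliceosome component, at 3.94 and 10.7 and Ncoa5, a nuclear receptor cofactor, at 2.41 and 6.88.

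Of the 15 genes, 3 were past 1.5-fold in the same direction in the old pair. These were Zbtb6, a zinc finger gene, at 1.28 and 5.13 in the young pair and 1.04 and 3.96 in the old, Trim25, a ubiquitin ligase of antiviral signalling, and Isyna1, which makes inositol phosphate. Of the 15, 4 overlap another listed gene, none with a difference in the opposite direction. In 5 of the 15 the old pair differed by 1.5-fold in the opposite direction. The share of all genes past 1.5-fold between old KO and old WT was not counted. Whether 3 or 5 of 15 is more than that share is therefore not known. In 8 of them old WT differed from young WT by 1.5-fold toward the young KO value. Over all measured genes, old and young WT differed by 1.5-fold or more either way at 15.8%. The 15 were picked on the young pair, which includes young WT, so a shift of old WT toward young KO is partly set by that choice.

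On the lower side, ranks 11 to 25 ran from -1.36 to -1.05. Atxn7l3, a subunit of the SAGA deubiquitinase, was at 15.8 in the WT and 5.56 in the KO library, and Cetn2, a centrin of centrioles and nucleotide excision repair, at 7.21 and 2.33. Sumo3, a small protein modifier, was at 10.5 and 4.09, Pip5k1c, a phosphoinositide kinase, at 15.0 and 6.28, and Erp29, a chaperone of the endoplasmic reticulum, at 8.24 and 3.19. Pank2, the mitochondrial pantothenate kinase, was at 8.50 and 3.54 and Bex6 at 19.4 and 8.85. Cebpd, Ska2 and Stmn1 are given above. The other 5 were lower by 1.5-fold in both pairs. Ptk7, a Wnt co-receptor, was at 9.90 and 4.11 in the young pair and 5.17 and 1.59 in the old, Ltbp3, which tethers latent TGF-beta, at 14.6 and 6.21 and at 11 and 4.67, and Tspan6, a tetraspanin, at 6.21 and 2.44 and at 4.79 and 1.34. Shisa8 was at 5.71 and 1.75 and at 4.83 and 1.82, and Ppp1cc, a catalytic subunit of protein phosphatase 1, at 5.64 and 2.21 and at 5.08 and 1.75. Of the 15 lower genes, 2 differed by 1.5-fold in the opposite direction in the old pair. Here too the counts of 5 and 2 have no share of all genes in the old pair beside them. In 3 of the 15 old WT differed from young WT by 1.5-fold toward the young KO value.

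Setting the old pair beside the young one, 8 of the 24 list medians had the same sign and 16 the opposite one. The median of late neutrophil genes was -0.39 in the young and 1.84 in the old pair, that of monocyte and dendritic cell genes -0.21 and 1.11, and that of early erythroid genes 0.66 and -0.51. Kinesin and spindle genes were at 0.18 and 0.14, mitotic kinases at 0.16 and 0.15, chaperones at 0.15 and 0.14, and Hoxa and Hoxb genes at -0.22 and -0.22. The difference between the pairs has no test.

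**Figure D5:**
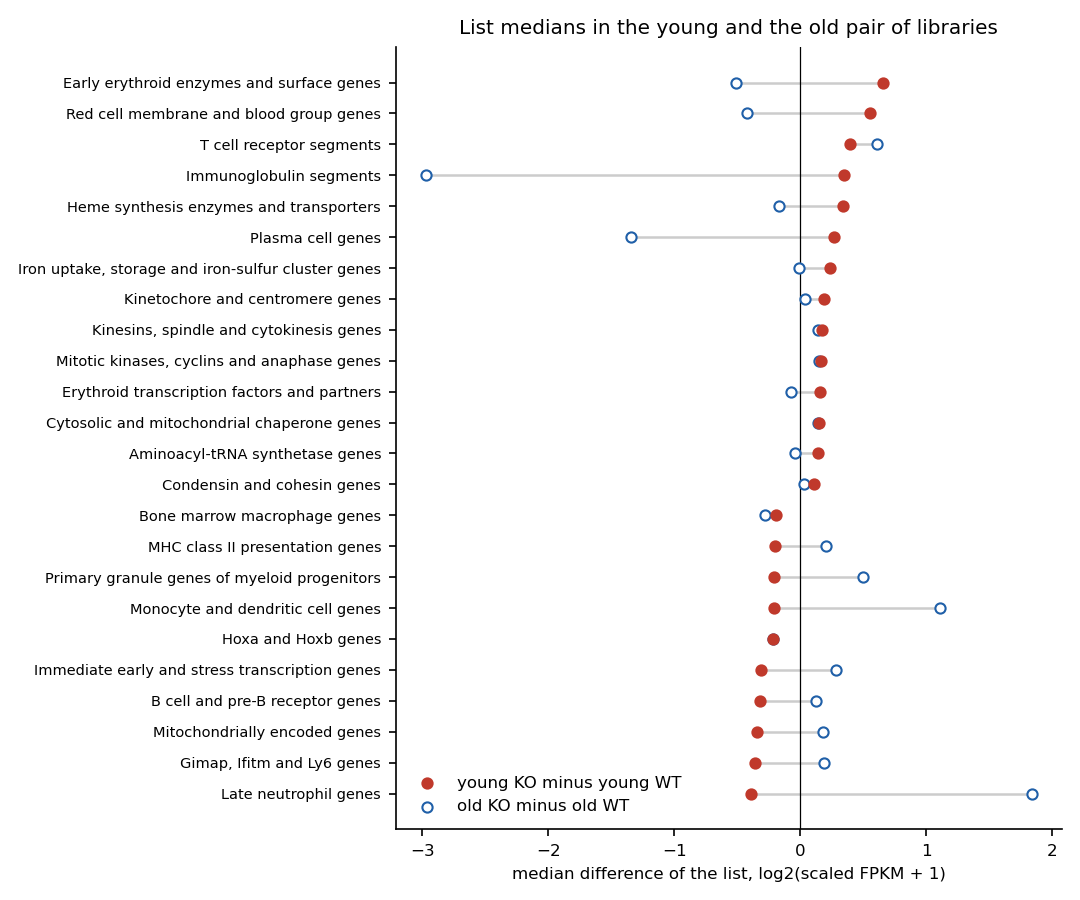
Median difference, log2(scaled FPKM + 1), of the 24 lists in young KO minus young WT (filled red) and old KO minus old WT (open blue), 1 library per group, with lists in order of the young value. Heme, red cell membrane, early erythroid, plasma cell and immunoglobulin lists lie right of 0 in the young and left of 0 in the old pair, granule, neutrophil and monocyte lists the other way round, and mitotic kinase, kinesin, chaperone and Hox lists nearly coincide.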

How the data were processed

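The authors deposited 1 FPKM per gene and library beside its identifier and locus. Named in the submitters' processing notes, without roles, are StringTie 1.3.0, HISAT2 2.0.4, Trimmomatic, FastQC and CASAVA, and the build mm10 (GRCm38). Whether counting used strand is not stated. Each file lists genes at 0.5 FPKM or more. Total RNA of 100 ng went into each library, per the labels' protocols.

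Files were joined by gene identifier, 18 symbols turned into dates were restored, and rows were summed for 13 symbols. Median-of-ratios scaling used the 10935 genes at 1 or more in all 4 libraries (multipliers 0.940 for young WT and 1.02 for the others). The pseudocount was 1. Unlisted genes were set to 0.5. Depth was read from the spacing of low values, which was whole for 62.2% and 62.9% of short-gene values in young WT and KO, and covers counting error alone. Members and lists were chosen with earlier results of these data known. Of a described list, up to 6 members with the largest difference at a level of 5 or more and up to 2 further abundant ones could be named; other members named were chosen after their values were seen. Ranked genes leave out predicted, clone-named, pseudogene, small RNA, mitochondrial, histone cluster and antigen receptor genes. Promoters come from a RefSeq table with 27025 symbols, in which Car1 and Slc4a1 were not matched. Some genes that the rule names are left out of the text. The steps were tested on simulated data. Python 3.11.15, pandas 2.3.3, numpy 2.4.6 and matplotlib 3.10.9 were used.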

Additional observations from a re-analysis of the deposited data

Results flagged for a closer look

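In 12 of the 24 lists the median of the young pair lay on the other side of 0 from that of the old pair, with both past 0.15 in size. The difference was not tested, since each pair has 1 library per genotype. Of the red cell lists 3 were above 0 in the young pair and below 0 in the old pair: heme synthesis genes had a median of 0.34 in the young and -0.17 in the old pair, red cell membrane genes 0.55 and -0.42, and early erythroid genes 0.66 and -0.51. In the old pair erythroid factors had -0.07, iron genes -0.01 and globins and late red cell genes 0.98. Plasma cell genes had 0.27 and -1.35, and immunoglobulin segments 0.35 and -2.97. On the opposite sides were primary granule genes, with -0.21 and 0.50, late neutrophil genes, with -0.39 and 1.84, and monocyte and dendritic cell genes, with -0.21 and 1.11. So were MHC class II genes, with -0.20 and 0.21, Gimap, Ifitm and Ly6 genes, with -0.36 and 0.19, immediate early genes, with -0.32 and 0.28, and mitochondrially encoded genes, with -0.35 and 0.18.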

How the results depend on the processing

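Against 506 genes 1.5-fold higher and 454 lower, a pseudocount of 0.1 gave 897 and 912, one of 5 gave 121 and 81, and a minimum level of 5 gave 238 and 194. Without scaling 373 were higher and 694 lower. Named genes alone, a restriction chosen after seeing the data, gave 296 and 308. The median of B cell genes, -0.32, turned to 0.027 over genes listed in both young libraries. Over all alternatives the other 23 described lists kept the sign of their median; without scaling, where all genes had a median of -0.10, that of condensin and cohesin genes was 0.00, chaperones 0.034, aminoacyl-tRNA synthetases 0.036 and erythroid factors 0.047. In 10 of the 24 described lists the median moved by more than 0.1 beyond the shift of all genes in at least 1 alternative. That of early erythroid genes ran from 0.37 to 0.72 and that of red cell membrane genes from 0.34 to 0.74. No single gene named by the rule reversed. In at least 1 alternative 27 came under 1.5-fold, and 7 that had been under it came past it. No paired analysis was possible because each group has 1 library. Depth limits genes at low levels most: under a mean level of 2 the middle 95% of genes lay between -0.80 and 0.83.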
